A study of Mus musculus with 4 samples.

Results

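Spots that held a transcript of Foxp3 were compared with spots of the same tumor section that held none. A spot is a barcoded area of a Visium slide that captures the RNA of the few cells lying above it, and each captured molecule is counted by its UMI (unique molecular identifier). A spot was taken as a Foxp3 spot at 1 Foxp3 UMI or more, and 240 of 11947 tissue spots in 4 sections were Foxp3 spots. For the comparison, 5 Foxp3-free spots per Foxp3 spot were taken from the same section and the same of 10 strata of spot depth, which gave 1200 matched free spots. The UMIs were then summed over each class within each section, and the 8 sums were compared in pairs within sections. The spots were thus chosen by their Foxp3 UMIs, and Foxp3 itself was left out of every comparison.

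Foxp3 is the transcription factor that defines regulatory T cells (Treg), the CD4+ T cells that restrain other T cells and hold autoimmunity in check. Tregs carry the high-affinity IL-2 receptor and inhibitory or costimulatory surface receptors such as CTLA-4, GITR and OX40, and they consume IL-2 that effector T cells would otherwise use. In tumors they are drawn by chemokines such as CCL22 and CCL17 from dendritic cells and macrophages, and they are among the targets of immunotherapy because they dampen antitumor cytotoxicity.

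The sections came from tumors of MC38, a colon carcinoma line derived from C57BL/6, in female F1 hosts aged 8 to 12 weeks. The tumor cells had been injected subcutaneously. The CC075F1 hosts (C57BL/6J x CC075/UncJ, n = 2) belong to a strain the study calls a responder to anti-PD-1, and the CC080F1 hosts (C57BL/6J x CC080/TauUncJ, n = 2) to a non-responder strain. All 4 mice had a single intraperitoneal dose of 200 µg of the isotype control antibody 2A3 at a tumor size of 75 to 110 mm3, and tumors were taken 48 h later, so no anti-PD-1 treated tumor enters here. The titles mark the 2 sections of a strain as biological replicates. The tumor cells are from a single line in all hosts, whereas the T cells and other stromal cells are those of the host. Below, values by section stand in the order CC075F1 replicate 1, CC075F1 replicate 2, CC080F1 replicate 1 and CC080F1 replicate 2.

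The sections held 2710 to 3276 tissue spots, 82594649 to 146460975 UMIs and a median of 31139 to 41740 UMIs per spot. CC075F1 replicate 2 was the deepest and held 39 of the 41 spots in which over 1% of the UMIs came from keratinocyte, skeletal muscle and adipocyte genes, 2 of them Foxp3 spots. After matching, the median depth was 32126, 36079, 37505 and 37112 UMIs in Foxp3 spots and 32260, 36813, 37267 and 35729 UMIs in matched free spots. Class sums ran from 1407516 to 3126358 UMIs for Foxp3 spots and from 7057461 to 15672576 UMIs for free spots. In a spot, a higher summed level can mean more cells of a type or more RNA per cell, and these cannot be told apart.

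Foxp3 was sparse in every tumor, and its spots lay scattered over the sections. They numbered 68 of 2710, 45 of 3276, 37 of 2787 and 90 of 3174 tissue spots. As shares these were 2.51% (95% exact binomial interval 1.95 to 3.17), 1.37% (1.00 to 1.83), 1.33% (0.936 to 1.83) and 2.84% (2.29 to 3.47), and the intervals cover counting error only. Foxp3 spots were thus about as frequent in CC075F1 replicate 1 as in CC080F1 replicate 2, and the other 2 sections held fewer. The strain means were 1.94% ± 0.803 (SD, n = 2) in CC075F1 and 2.08% ± 1.07 (SD, n = 2) in CC080F1, a ratio of 0.933 (two-sided exact permutation test, p = 1.0, with 0.33 the smallest p that 2 against 2 sections allow). The replicates of a strain differed more than the strains did, and the ratio ran from 0.66 to 1.46 when a section was left out.

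**Figure D1:**
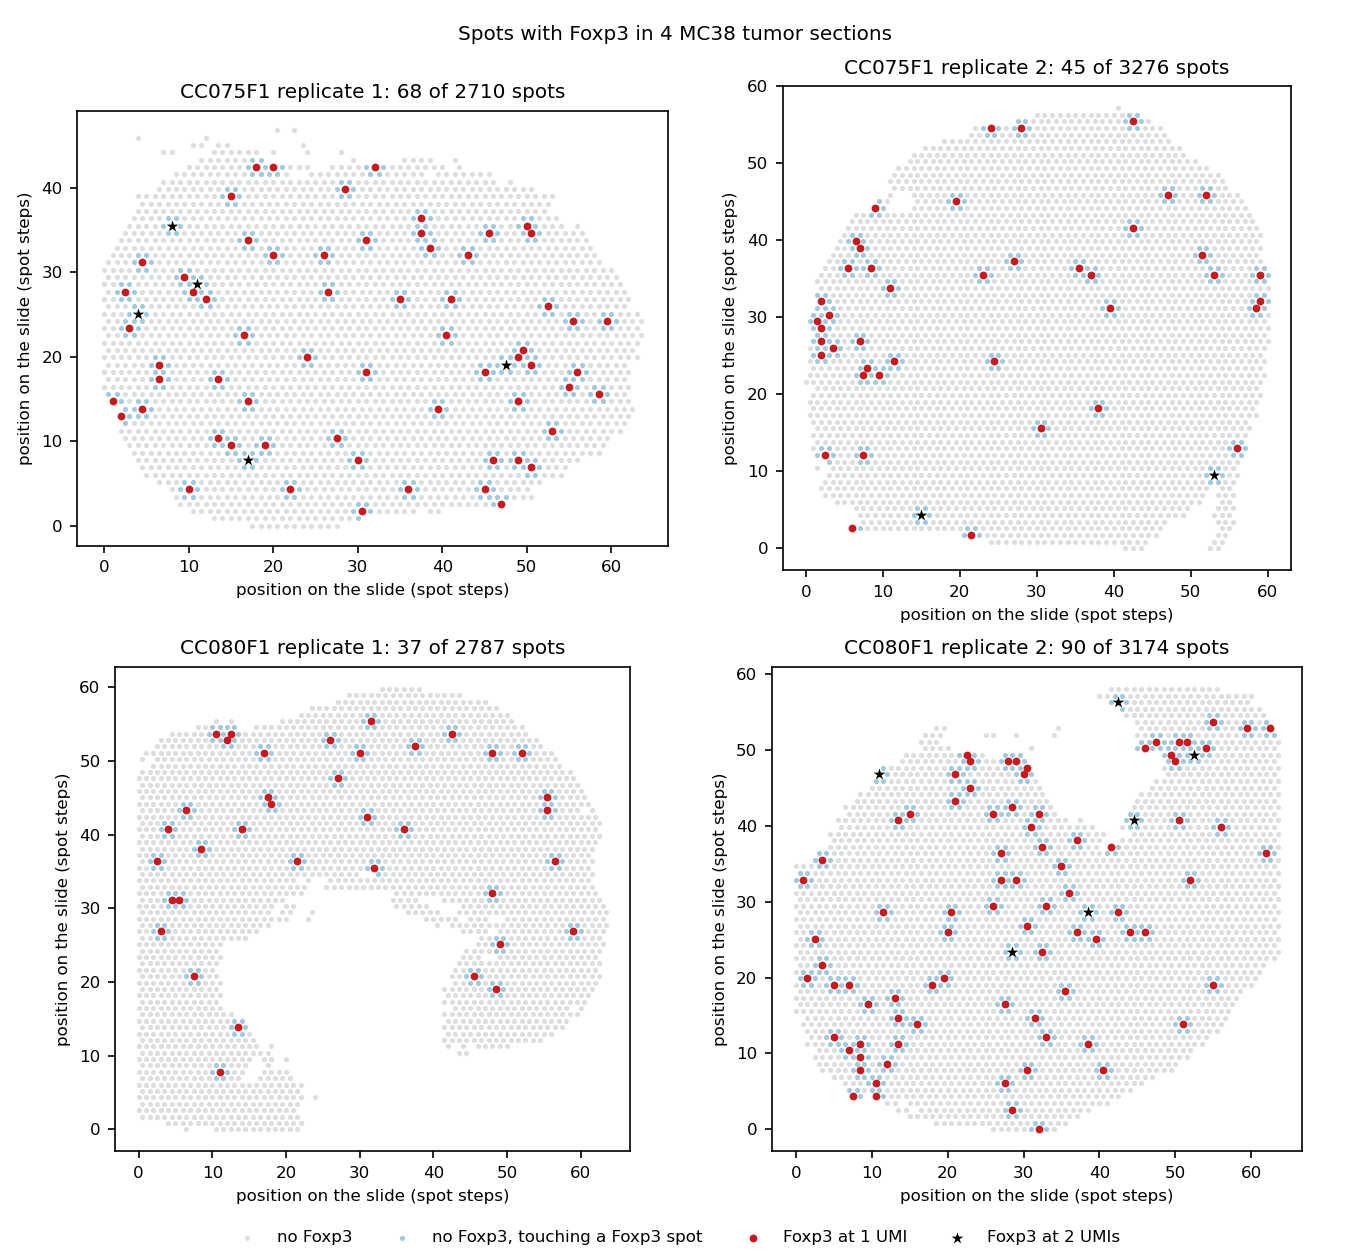
Tissue spots of the 4 sections at their positions on the slide, in steps between neighbouring spots. Red dots mark spots with 1 Foxp3 UMI, black stars those with 2, blue dots Foxp3-free spots that touch a Foxp3 spot, and grey dots all other tissue spots. The 68, 45, 37 and 90 Foxp3 spots lay both at the rim and inside the tissue.

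A Foxp3 spot rested on very few molecules. Foxp3 gave 73, 47, 37 and 96 UMIs in the sections, or 0.884, 0.321, 0.395 and 0.852 CPM (UMI counts scaled to a common library size). No spot held more than 2 Foxp3 UMIs. The spots with 2 numbered 5, 2, 0 and 6, lay at depths of 10927 to 61873 UMIs, and 10 of the 13 also held a UMI of Cd3d, Cd3e, Cd3g or Trac. Just outside the threshold stood the 11707 spots with 0 Foxp3 UMIs, and at this depth a spot without a Foxp3 UMI cannot be read as a spot without a Treg. Foxp3 lies on chromosome X at 7573644-7595245 of GRCm38 (plus strand), and its ends overlap the neighbouring genes Ppp1r3f (7557296-7574283) and Ccdc22 (7593809-7605517), both on the minus strand. Ccdc22 stood at 26.8, 20.5, 23.4 and 23.7 CPM in Foxp3 spots and 22.8, 15.1, 23.2 and 24.6 CPM in matched free spots, a log2 fold change of 0.08 ± 0.11 (SE; edgeR adjusted p = 0.886). Ppp1r3f was too low to test, at 0 to 1.6 CPM in Foxp3 spots and 0.326 to 1.7 CPM in free spots.

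The spots were checked against other genes of Tregs and of T cells. A UMI of any of Cd3d, Cd3e, Cd3g and Trac, which encode parts of the T cell receptor complex, was present in 73.5%, 77.8%, 37.8% and 45.6% of Foxp3 spots. In matched free spots the shares were 63.5%, 63.1%, 36.8% and 27.8%. The share was higher among Foxp3 spots in 4 of 4 sections, by 10.9 percentage points on average (two-sided exact permutation test by sign flips, p = 0.13, the smallest p that 4 pairs allow). In CC080F1 replicate 1 the difference was 1.08 points, with 14 of 37 Foxp3 spots holding such a UMI.

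Genes of 5 surface receptors from the Treg list were counted in the same way. At least 1 UMI of Il2ra, Ctla4, Tnfrsf18, Tnfrsf4 or Icos was present in 45.6%, 71.1%, 29.7% and 62.2% of Foxp3 spots against 28.5%, 32.9%, 21.1% and 32.9% of matched free spots, that is in 130 of 240 Foxp3 spots and 358 of 1200 free spots. This set of 5 genes was picked after the values of the Treg list were seen. It is thus given as a description with no test, and is not ranked against the T cell genes. Taken singly, Ctla4 was in a smaller share of Foxp3 spots in CC075F1 replicate 1 (2.94% against 5.29%). So was Tnfrsf4 in CC080F1 replicate 1 (8.11% against 10.8%). Ikzf2, a listed gene outside the set, was present in 42 of 240 Foxp3 spots and 182 of 1200 free spots. Taking these 5 genes and the 4 T cell genes together, 179 of 240 Foxp3 spots and 710 of 1200 free spots held a UMI. The remaining 61 Foxp3 spots thus showed Foxp3 with none of these 9 genes. Cd4 itself was close to undetected, in 11 Foxp3 spots and 13 free spots, and Ccr8, a chemokine receptor of tumor Tregs, gave 2 and 1 UMIs in the summed classes.

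Across all genes, 225 of 11418 genes tested (1.97%) differed between Foxp3 spots and matched free spots by edgeR's quasi-likelihood test with section as a block and Benjamini-Hochberg adjusted p below 0.05. Of these, 149 (1.3%) were higher and 76 (0.666%) lower in Foxp3 spots, and 97 and 58 of them moved in the same direction in all 4 sections. Over all genes tested, the log2 fold change had a median of -0.01, and 48.4% of them were above 0. DESeq2's Wald test with the same design was stricter and called 38 genes, 32 higher and 6 lower, all of them among the 225. Leaving out a section moved the count to between 59 (without CC080F1 replicate 2) and 401 (without CC080F1 replicate 1). The count was 105 without CC075F1 replicate 2. The filter on low counts let a gene in at 1.96 CPM in 4 of the 8 sums, so a gene low in free spots could enter only through its level in Foxp3 spots. Of the 149 higher genes, 117 reached that level in all 4 free sums.

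**Figure D2:**
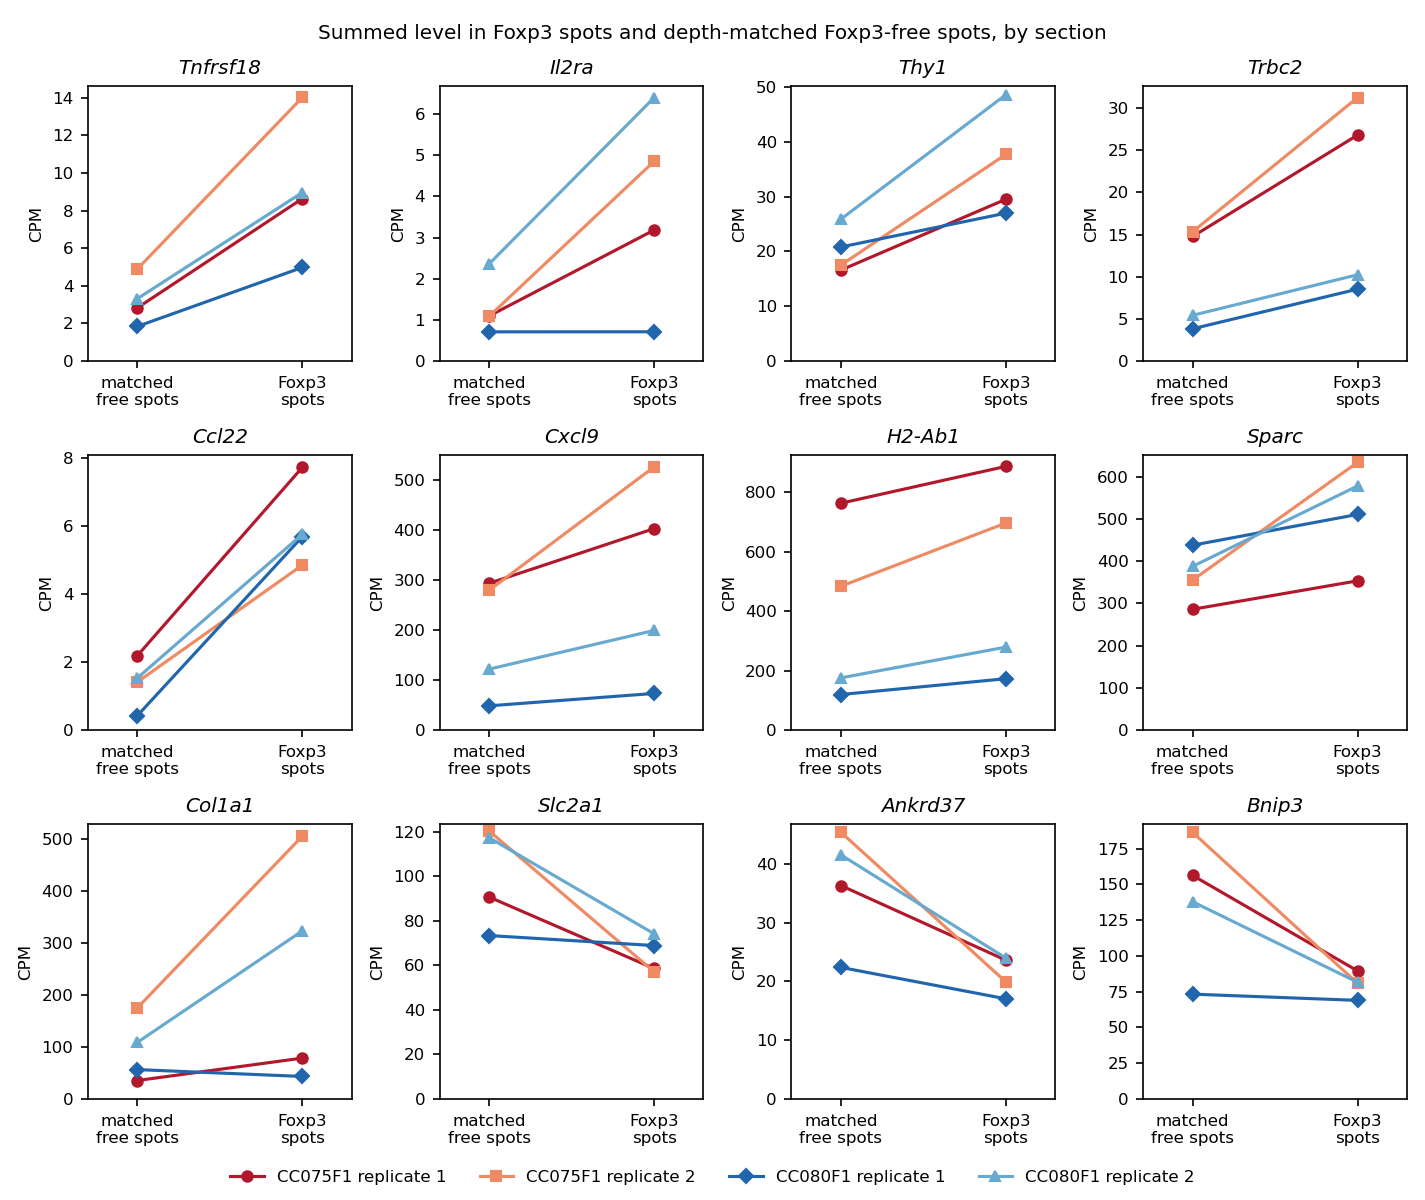
Summed level (CPM, linear axis from 0) of 12 genes in depth-matched Foxp3-free spots (left) and Foxp3 spots (right), with a line for each section and no error bars because each point is a sum. All 4 lines rise for Tnfrsf18, Thy1, Trbc2, Ccl22, Cxcl9, H2-Ab1 and Sparc, that of Il2ra is flat in CC080F1 replicate 1 (0.709 and 0.711 CPM), that of Col1a1 falls there, and all 4 fall for Slc2a1, Ankrd37 and Bnip3.

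Part of the Treg list was higher in Foxp3 spots, and which cells of a spot made this RNA was not tested. Of 25 listed genes, 14 passed the filter, 13 of these had a fold change above 0, and 3 rose: Tnfrsf18, Il2ra and Tnfrsf4. The median log2 fold change of the 14 was 0.44. Only 10 of the 14 reached the filter's level in all 4 free sums, among them Tnfrsf4 of the 3 that rose, so the count of the list leans on genes that entered through Foxp3 spots. The list's summed level was 299.9, 349, 241 and 372 CPM in Foxp3 spots and 249, 272, 249 and 319 CPM in free spots, higher in 3 of 4 sections. Capg, an actin-capping protein that macrophages also make, accounted for 151, 178, 138 and 160.3 CPM of it in Foxp3 spots.

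Tnfrsf18, which encodes the costimulatory receptor GITR, was the clearest member. It stood at 8.63, 14, 4.97 and 8.96 CPM in Foxp3 spots and at 2.83, 4.90, 1.84 and 3.32 CPM in free spots. The lowest Foxp3 sum lay above the highest free sum, and the log2 fold change came to 1.43 ± 0.22 (SE; edgeR adjusted p = 0.000105, DESeq2 adjusted p = 0.00372). Its call held without each section in turn.

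Il2ra encodes CD25, the alpha chain that gives the IL-2 receptor its high affinity. Its levels were 3.18, 4.85, 0.711 and 6.40 CPM in Foxp3 spots against 1.09, 1.09, 0.709 and 2.36 CPM in free spots. The groups did not separate in CC080F1 replicate 1, where the Foxp3 sum held 1 UMI and the free sum 5. The log2 fold change came to 1.47 ± 0.33 (SE; edgeR adjusted p = 0.00995, with no adjusted p from DESeq2). In free spots Il2ra reached the filter's level of 1.96 CPM in CC080F1 replicate 2 alone, so it entered the test through the Foxp3 spots. The call was lost without either CC075F1 section. Without CC080F1 replicate 2, Tnfrsf18 was the only gene of the Treg list called, so Il2ra was not called there either. Tnfrsf4, which encodes the costimulatory receptor OX40, was at 7.72, 10.2, 2.13 and 10.2 CPM against 3.65, 4.24, 2.98 and 4.47 CPM, higher in 3 of 4 sections (log2 fold change 0.99 ± 0.23, edgeR adjusted p = 0.014). Its call was lost without CC075F1 replicate 1, CC075F1 replicate 2 or CC080F1 replicate 2.

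The other named Treg genes did not pass the test or were too low for it. Ctla4, an inhibitory receptor of Tregs, was at 0.909, 3.23, 2.13 and 6.72 CPM against 1.73, 1.31, 0.567 and 2.55 CPM (log2 fold change 1.02 ± 0.36, edgeR adjusted p = 0.172). Ikzf2, which encodes the Treg transcription factor Helios, was at 5.45, 4.85, 4.97 and 5.44 CPM against 5.75, 2.83, 5.67 and 4.85 CPM, so its classes overlapped (0.09 ± 0.24, edgeR adjusted p = 0.947). Il10, an inhibitory cytokine, gave 12 UMIs in Foxp3 spots and 30 in the 5 times as many free spots, at 2.27, 1.08, 0.711 and 1.28 CPM against 0.639, 0.435, 0.567 and 0.957 CPM, and was not tested. Icos, a costimulatory receptor, was also under the filter, with 37 UMIs in Foxp3 spots and 52 in free spots, and was higher in 4 of 4 sections.

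The genes of the T cell receptor complex and its coreceptors that could be tested all had fold changes above 0. Of 20 listed genes 16 were tested, all 16 had a fold change above 0 with a median log2 of 0.65, and 4 rose: Thy1, Trbc2, Trac and Cd6. Only 6 of the 16 reached the filter's level in all 4 free sums, so the sign of the others is partly set by the filter. Of the 4 that rose, 3 reached it there, and Cd6 did not. With no filter, 19 of 20 genes had a fold change above 0, with a median log2 of 0.62. Cd28, which was not tested, was at 0.387 CPM in Foxp3 spots and 0.609 CPM in free spots on average. The summed level of the list was 178, 199.9, 68.9 and 127 CPM in Foxp3 spots and 121, 112, 52.0 and 68.2 CPM in free spots, higher in all 4 sections. Without a section, 2 to 5 of its genes were called.

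Thy1, a surface glycoprotein of mouse T cells that fibroblasts also carry, was at 29.5, 37.7, 27.0 and 48.6 CPM in Foxp3 spots and 16.6, 17.5, 20.8 and 25.9 CPM in free spots. The classes did not overlap, and the log2 fold change came to 0.80 ± 0.10 (SE; edgeR adjusted p = 1.08e-05, DESeq2 adjusted p = 0.00113). Trbc2, a constant region of the T cell receptor beta chain, was at 26.8, 31.3, 8.53 and 10.2 CPM against 14.8, 15.3, 3.83 and 5.42 CPM (0.89 ± 0.14, edgeR adjusted p = 0.000201). The values of CC075F1 exceeded those of CC080F1 in either class, and within each section the level was higher in Foxp3 spots. Trac, the alpha chain constant region, and Cd6, a costimulatory receptor, rose in 3 of 4 sections (0.86 ± 0.20, edgeR adjusted p = 0.0121, and 1.34 ± 0.36, edgeR adjusted p = 0.043), and neither call held without CC080F1 replicate 2.

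In the IL-2 and common gamma chain list, 2 of 11 genes tested rose, Il2rb and Il2rg, with a median log2 of 0.12 over the list. Il2rb, the beta chain shared by the IL-2 and IL-15 receptors, was at 17.7, 19.9, 9.24 and 19.5 CPM against 12.6, 7.18, 5.67 and 13.7 CPM (0.67 ± 0.16, edgeR adjusted p = 0.0143). Il2rg, the common gamma chain, was at 30.0, 45.8, 19.2 and 26.2 CPM against 23.3, 27.7, 15.0 and 19.4 CPM (0.43 ± 0.10, edgeR adjusted p = 0.019). Both were higher in 4 of 4 sections, and both calls were lost without CC075F1 replicate 2 or CC080F1 replicate 2. Il2, the cytokine itself, gave 9 UMIs in Foxp3 spots and 49 in free spots and was not tested.

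Of the cytotoxic T and NK cell list, 1 of 8 genes tested rose, Nkg7, a protein of cytotoxic granules (0.56 ± 0.13, edgeR adjusted p = 0.0169, higher in 4 of 4 sections). Its call was lost without CC075F1 replicate 1, CC075F1 replicate 2 or CC080F1 replicate 2. Ccl5, the chemokine that made up most UMIs of that list, stood at -0.11 ± 0.04 on the log2 scale (edgeR adjusted p = 0.295). None of 6 genes tested of the checkpoint and exhaustion list was called by edgeR or DESeq2, and 1 had an unadjusted p under 0.05, while all 6 fold changes were above 0 with a median log2 of 0.55. Only 3 of these 6 genes reached the filter's level in all 4 free sums, so the sign of the others is partly set by the filter. Lag3, an inhibitory receptor that reached it in 1 free sum, was the nearest to a call (1.12 ± 0.39, edgeR adjusted p = 0.167).

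Chemokines were among the largest differences. Of 19 listed chemokines and receptors 12 were tested, 11 had a fold change above 0, the median log2 was 0.46, and 7 rose: Ccl8, Cxcl9, Ccl22, Ccr2, Ccl17, Ccr7 and Cxcl10. Of these 7, 4 reached the filter's level in all 4 free sums. Ccl22, Ccl17 and Ccr7 did not, so they entered the test at least in part through the Foxp3 spots. The summed level of the list was 1247, 1429, 556 and 1045 CPM in Foxp3 spots and 985, 852, 495 and 692 CPM in free spots. Without a section, 5 to 9 of its genes were called.

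Ccl22, a ligand of the receptor CCR4 on Tregs that is made by dendritic cells and macrophages, had the largest positive fold change of the named genes. It stood at 7.72, 4.85, 5.68 and 5.76 CPM in Foxp3 spots and 2.19, 1.41, 0.425 and 1.53 CPM in free spots, with no overlap between the classes. The log2 fold change came to 1.97 ± 0.31 (SE; edgeR adjusted p = 0.000156, DESeq2 adjusted p = 0.00165). It reached the filter's level in all 4 Foxp3 sums but in 1 free sum, so it entered the test through the Foxp3 spots. A Ccl22 UMI was present in 38 of 240 Foxp3 spots and 53 of 1200 free spots. Its receptor Ccr4 gave 1 UMI in Foxp3 spots and 0 in matched free spots. The other mature dendritic cell gene that rose was Ccr7, the receptor that guides cells to lymph nodes, which naive and memory T cells also carry (1.33 ± 0.30, edgeR adjusted p = 0.0119, 3 of 4 sections). Its call was lost without CC080F1 replicate 2, and 2 of 8 genes tested of the mature dendritic cell list were called in all. Neither of the 2 reached the filter's level in all 4 free sums.

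Cxcl9, an IFN-γ-induced ligand of CXCR3 on activated T cells, was at 403, 527, 73.2 and 199 CPM in Foxp3 spots and 294, 280, 48.5 and 122 CPM in free spots. It was higher in each section although its level differed several fold between sections, with a log2 fold change of 0.62 ± 0.06 (SE; edgeR adjusted p = 1.77e-08, DESeq2 adjusted p = 1.25e-10). Ccl8, a monocyte-attracting chemokine of macrophages and fibroblasts, was at 145, 251, 29.8 and 175 CPM against 81.1, 128.3, 27.6 and 69.5 CPM (0.93 ± 0.08, edgeR adjusted p = 1.42e-08). Its difference was smallest in CC080F1 replicate 1, and DESeq2 gave an adjusted p of 0.0646. Ccr2, the receptor of inflammatory monocytes, was at 65.4, 37.7, 80.3 and 69.4 CPM against 43.7, 23.8, 68.2 and 49.8 CPM (0.43 ± 0.08, edgeR adjusted p = 0.000721).

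Most genes of antigen presentation by MHC class II that could be tested rose. Of 12 listed genes 10 were tested, all 10 fold changes were above 0, and 7 rose, each in all 4 sections: H2-Ab1, Cd74, H2-Aa, H2-Eb1, H2-DMb1, Ciita and Ifi30. DESeq2 called 4 of the 10. The median log2 fold change was 0.31, and all 7 reached the filter's level in the 4 free sums. H2-Ab1, the beta chain of I-A, was at 887, 696, 173 and 279 CPM in Foxp3 spots and 763, 484, 119 and 175 CPM in free spots (0.41 ± 0.05, edgeR adjusted p = 1.71e-05, DESeq2 adjusted p = 6.54e-05). Cd74, the invariant chain that guides class II loading, was higher by 0.34 ± 0.05 on the log2 scale (edgeR adjusted p = 0.000156) and H2-Aa, the alpha chain of I-A, by 0.36 ± 0.06 (edgeR adjusted p = 0.000261). The summed level of the list was 5872, 4792, 1368 and 1823 CPM in Foxp3 spots and 5157, 3560, 1097 and 1329 CPM in free spots, so the sections of CC075F1 lay above those of CC080F1 in both classes. The count of the list was 1 without CC080F1 replicate 2 and 4 without CC075F1 replicate 2, and the median of its 10 genes tested was then 0.27 and 0.28. H2 genes differ in sequence between mouse strains, reads were aligned to a C57BL/6J reference, and the part of this in the values was not tested.

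The 18-gene IFN-γ signature, which shares Cxcl9 and class II genes with those lists, had 5 of 15 genes tested higher and none lower, with a median log2 of 0.33. Of the MHC class I list, none of 14 genes was called by edgeR or DESeq2, 5 had an unadjusted p under 0.05, and the median log2 was 0.08. H2-Aa, H2-Eb1 and Cd74 lost their calls without CC080F1 replicate 2.

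**Figure D3:**
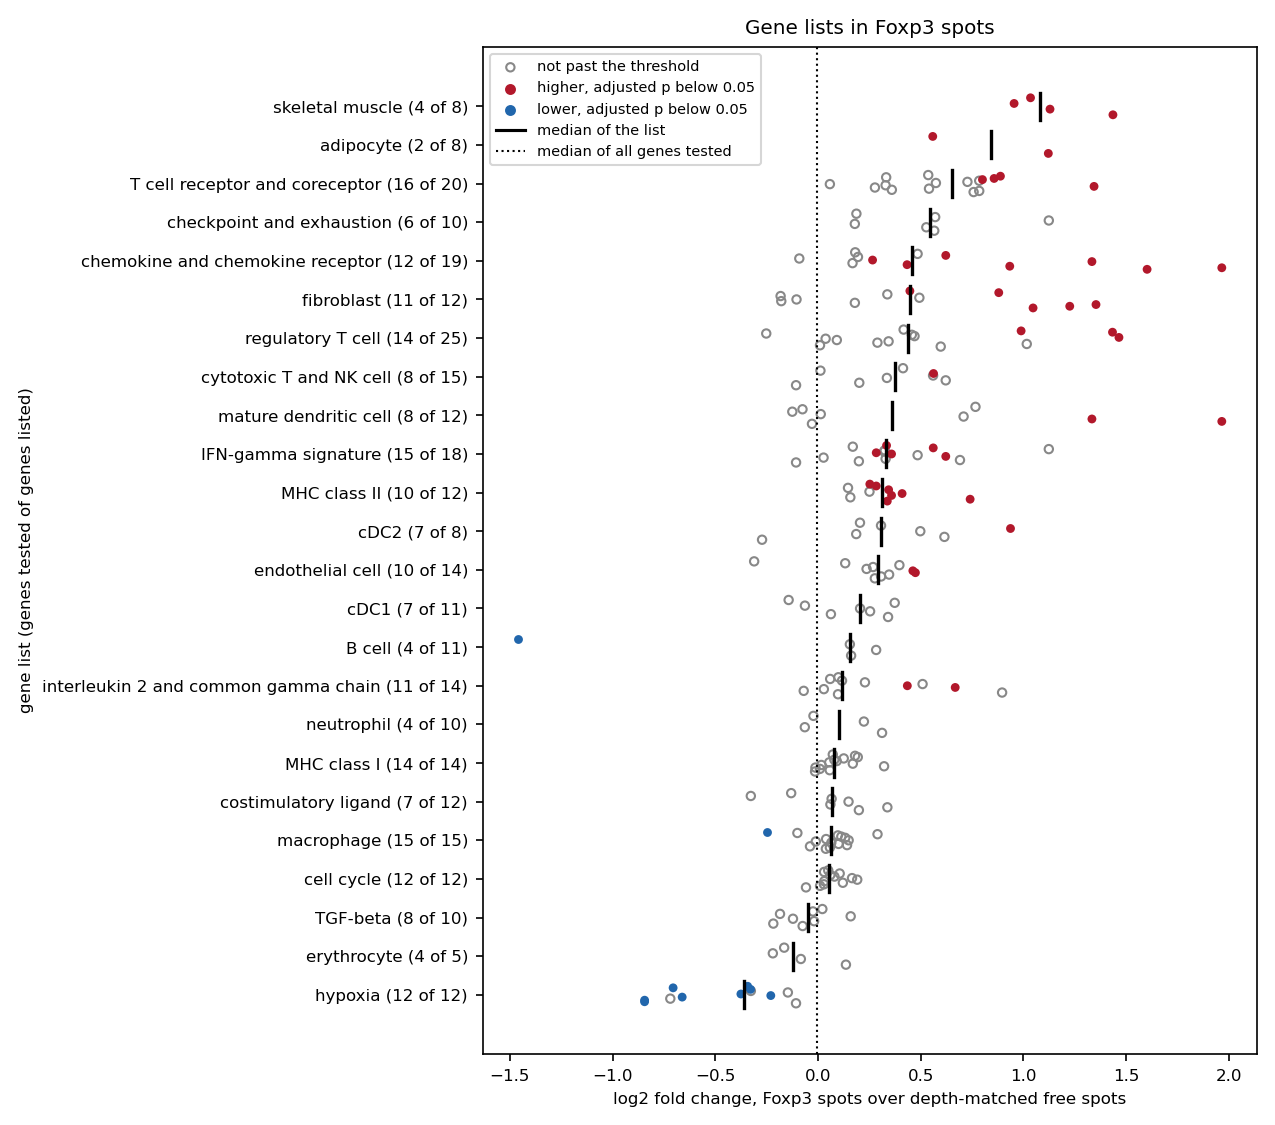
Log2 fold change (Foxp3 spots over depth-matched free spots) of each tested gene of 24 lists with at least 2 genes tested. Filled points passed the adjusted p of 0.05 (red higher, blue lower), open points did not, black bars are list medians and the dotted line is the median of all genes tested. Hypoxia has the lowest median (-0.36) with 8 of 12 genes lower, and the T cell receptor, chemokine and MHC class II lists have medians of 0.65, 0.46 and 0.31 with all called genes higher.

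Stromal genes were partly higher in Foxp3 spots, and unevenly between tumors. Of 11 fibroblast genes tested 5 rose, Col1a2, Bgn, Col1a1, Sparc and Postn, with a median log2 of 0.45 over the list. All 11 had an unadjusted edgeR p under 0.05, but only 8 had a fold change above 0. Dcn (538 against 578 CPM on average) and Fn1 (434 against 451 CPM) were lower in all 4 sections. For Fn1 the classes were almost level in CC075F1 replicate 2 (291.0 against 291.5 CPM) and CC080F1 replicate 1 (454.0 against 455.1 CPM). Of the 5 that rose, only Sparc was higher in all 4 sections. Col1a2 and Bgn were lower in CC080F1 replicate 1, as was Col1a1. Col1a1, the main collagen of scar and tumor stroma, was at 78.6, 505, 43.3 and 323 CPM in Foxp3 spots and 35.6, 175, 56.5 and 109 CPM in free spots. It was over 2-fold higher in 3 sections and lower in CC080F1 replicate 1, and the classes overlapped across sections (1.23 ± 0.11, edgeR adjusted p = 2.98e-08, but DESeq2 adjusted p = 0.863). With a robust estimate of the spread, which gives less weight to genes of unusual variance, 1 fibroblast gene was called. Sparc, a matrix-binding glycoprotein of fibroblasts and vessels, was at 354, 634, 511 and 578 CPM against 286, 355, 438 and 388 CPM, higher in all 4 sections (0.45 ± 0.06, edgeR adjusted p = 7.2e-06, DESeq2 adjusted p = 5.56e-05).

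Loxl1, which crosslinks elastin, was at 10.5, 34.5, 4.97 and 24.3 CPM against 4.38, 15.8, 3.54 and 6.76 CPM (1.31 ± 0.17, edgeR adjusted p = 8.57e-06, DESeq2 adjusted p = 0.000471). C3, the central complement component made by fibroblasts and macrophages, was at 34.1, 32.3, 4.26 and 46.7 CPM against 13.8, 20, 3.68 and 15.4 CPM (1.17 ± 0.14, edgeR adjusted p = 2.44e-06, DESeq2 adjusted p = 0.000471). Both were higher in every section, but unevenly, and by least in CC080F1 replicate 1. The endothelial list had 2 of 10 genes tested higher, Esam (0.47 ± 0.11, edgeR adjusted p = 0.0121), a junction protein, and Kdr (0.46 ± 0.12, edgeR adjusted p = 0.0461), the main VEGF receptor. Its median log2 was 0.29 and its summed level was 156, 149, 275 and 248 CPM against 127, 117, 229.7 and 181 CPM. Neither of those 2 calls held without CC075F1 replicate 2 or without CC080F1 replicate 2. Gja4, a gap junction protein of arteries, and the matrix genes Ccn5 and Sulf1 were among the 10 largest positive fold changes, at 1.13 ± 0.23, 1.34 ± 0.23 and 1.26 ± 0.28.

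All 4 skeletal muscle genes tested of 8 listed were called higher by edgeR, but the list's summed level was 15.0, 895, 14.2 and 8.96 CPM in Foxp3 spots and 12.8, 331, 22.1 and 7.85 CPM in free spots. Acta1, skeletal muscle actin, gave 811 UMIs in the Foxp3 sum of CC075F1 replicate 2 and 0, 3 and 0 UMIs in the other Foxp3 sums. DESeq2 called none of these 4 genes, and without CC075F1 replicate 2 the 1 gene of the list that could be tested was not called by edgeR. Of the adipocyte list, 2 of 8 genes were tested and both were higher, Fabp4, which capillary endothelium also makes (0.56 ± 0.10, edgeR adjusted p = 0.000876, 4 of 4 sections), and Car3 (2 of 4 sections), while the defining gene Plin1 was at 0 UMIs in the Foxp3 sums of 3 sections and at 2 in CC080F1 replicate 2. Leaving out the spots with over 1% of skin, muscle and fat UMIs left 190 genes called, 129 higher and 61 lower, with 5 fibroblast genes higher at a median log2 of 0.43 and 8 hypoxia genes lower. Both adipocyte genes were called there too, at a median log2 of 1.13, as were 2 of the 4 muscle genes tested, at 0.84. The part of muscle and fat tissue in the stromal differences was not tested beyond this.

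Most genes of the hypoxia response were lower in Foxp3 spots. All 12 listed genes were tested, none had a fold change above 0, the median log2 was -0.36, and 8 fell, each in all 4 sections: Bnip3, Slc2a1, Ankrd37, Pgk1, Ldha, Ndrg1, Vegfa and Egln3. The summed level of the list was 2925, 2432, 2453 and 2788 CPM in Foxp3 spots and 3539, 3331, 2564 and 3349 CPM in free spots. The 4 listed genes that were not called, Adm, Car9, P4ha1 and Pdk1, were each higher in Foxp3 spots in 1 section. Without a section, 6 to 10 of its genes fell, while DESeq2 called 2.

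Bnip3, a mitophagy receptor induced by HIF-1, was at 89.5, 80.8, 68.9 and 81.6 CPM in Foxp3 spots and 156, 186, 73.3 and 138 CPM in free spots. The log2 fold change came to -0.84 ± 0.09 (SE; edgeR adjusted p = 6.32e-07, DESeq2 adjusted p = 0.264). Slc2a1, the glucose transporter GLUT1, was at 58.6, 57.1, 68.9 and 74.2 CPM against 90.7, 120.3, 73.4 and 117 CPM (-0.71 ± 0.09, edgeR adjusted p = 8.57e-06). In both genes the difference was small in CC080F1 replicate 1, the section with the lowest hypoxia level in free spots. Ankrd37, another HIF-1 target, was at 23.6, 19.9, 17.1 and 24.0 CPM against 36.3, 45.4, 22.4 and 41.5 CPM (-0.84 ± 0.11, edgeR adjusted p = 1.71e-05, DESeq2 adjusted p = 0.00393). A Bnip3 UMI was present in 172 of 240 Foxp3 spots and 910 of 1200 free spots, and this share was lower among Foxp3 spots in 2 of 4 sections.

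Among the 10 largest negative fold changes were also genes outside the lists. Hspa1a, a heat shock chaperone, was at 1.82, 4.31, 0 and 3.20 CPM against 7.85, 10.6, 0.709 and 8.42 CPM (-1.60 ± 0.27, edgeR adjusted p = 0.000514). Ddit3 (ENSMUSG00000025408), which encodes the integrated stress response factor CHOP, was at 38.2, 43.7, 37.7 and 48.0 CPM against 54.2, 86.8, 41.9 and 72.2 CPM (-0.67 ± 0.09, edgeR adjusted p = 3.47e-05, DESeq2 adjusted p = 0.00847). Ppp1r15a, which encodes GADD34, fell by 0.78 on the log2 scale, and Ptgs2, the inducible cyclooxygenase COX-2, by 0.72. All of these were lower in 4 of 4 sections, though Hspa1a was near the floor in CC080F1 replicate 1 (0 against 0.709 CPM). The call of Ppp1r15a was lost without CC080F1 replicate 2, and that of Ptgs2 without CC075F1 replicate 2 or either CC080F1 section.

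Few genes of the other lists were called. Of 15 macrophage genes 1 was called, Spp1 (osteopontin), which was lower in 4 of 4 sections (-0.25 ± 0.06, edgeR adjusted p = 0.00914, lost without CC080F1 replicate 2), and the median of the list was 0.06. Of the 15, 11 had a fold change above 0 and 6 an unadjusted edgeR p under 0.05. Summed levels of the macrophage, cDC1, cDC2 and cell cycle lists were higher in Foxp3 spots in 4 of 4 sections. On average they were 1.09, 1.18, 1.23 and 1.08 times the free level. Those of the neutrophil and TGF-beta lists were higher in 2 of 4 sections, and that of the costimulatory ligand list in 3. No gene of the cDC1, neutrophil, TGF-beta, costimulatory ligand or cell cycle lists was called by edgeR or DESeq2, with list medians of 0.20, 0.10, -0.05, 0.07 and 0.05 and with 3, 0, 2, 2 and 2 genes at an unadjusted p under 0.05. The erythrocyte list (4 genes tested) and the epithelial and keratinocyte lists (1 gene tested each) had no call by either tool and no unadjusted p under 0.05. Of the cDC2 list Ltb rose, the lymphotoxin beta chain that lymphocytes also make (0.94 ± 0.25, edgeR adjusted p = 0.0411), and its call was lost without CC075F1 replicate 1, CC075F1 replicate 2 or CC080F1 replicate 2. Igkc, the kappa light chain of plasma cells, was called lower (-1.46 ± 0.23), but from 23.7 against 71.6 CPM in CC075F1 replicate 2, and the sign turned (1.10) when the skin, muscle and fat spots were left out.

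To hold the UMIs of 4 T cell genes alike, Foxp3 spots with a UMI of Cd3d, Cd3e, Cd3g or Trac were paired with Foxp3-free spots that also held such a UMI, in strata of depth and of T cell UMIs. There were 50, 35, 14 and 41 pairs of spots, and both sums of a section rest on that many spots. Of 9504 genes tested 78 differed (0.821%), 47 of them higher (0.495%) and 31 lower (0.326%), by edgeR's quasi-likelihood test, and 12 by DESeq2. Of 7 Treg genes and 5 T cell receptor genes that could be tested, none was called by edgeR or DESeq2, and 2 of each list had an unadjusted p under 0.05. Tnfrsf18 was higher in 4 of 4 sections, by 1.10 ± 0.32 on the log2 scale (edgeR adjusted p = 0.0953). Other T cell RNA was not brought level by the matching, since Trbc2 stood at 0.77 ± 0.22 (edgeR adjusted p = 0.0917) and Thy1 at 0.54 ± 0.15 (edgeR adjusted p = 0.0673), both higher in 4 of 4 sections. Il2ra and Ctla4 were too low to be tested.

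Stromal, hypoxia, class II and chemokine genes differed between these T cell spots. Of 11 fibroblast genes tested 6 were higher, with Col1a1 at 1.09 ± 0.10 (edgeR adjusted p = 3.39e-13) and Sparc at 0.47 ± 0.06 (edgeR adjusted p = 1.16e-08), both in 4 of 4 sections. Of 10 hypoxia genes tested 6 were lower, with Bnip3 at -0.89 ± 0.11 (edgeR adjusted p = 1.35e-08) and Slc2a1 at -0.69 ± 0.13 (edgeR adjusted p = 0.000275). Of 9 class II genes tested 4 were higher, with Cd74 at 0.31 ± 0.05 (edgeR adjusted p = 1.51e-05). Ccl8 (1.09 ± 0.10, edgeR adjusted p = 6.01e-13) and Cxcl9 (0.35 ± 0.07, edgeR adjusted p = 0.000878) rose in 4 of 4 sections. DESeq2 called 2 fibroblast genes, 1 hypoxia gene, 1 chemokine and 0 class II genes, and gave Cxcl9 an adjusted p of 0.261. Markers of other cells moved as well by edgeR: Shisal2b, the 1 gene tested of the MC38 and epithelial list, was lower (-0.30 ± 0.08, edgeR adjusted p = 0.0414) and Lyz2, a lysozyme of macrophages, was higher (0.15 ± 0.04, edgeR adjusted p = 0.0296), the only call among 15 macrophage genes. Their part in the other differences was not tested. The count was 45 without CC075F1 replicate 2 and 47 without CC080F1 replicate 2.

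The Foxp3-free spots that touch a Foxp3 spot were then compared with depth-matched free spots that touch none, a comparison added after the number of such spots was seen. They numbered 362, 227, 205 and 473, with 3 control spots each. Of 13181 genes tested 173 differed (1.31%), 101 higher (0.766%) and 72 lower (0.546%), and 79 and 65 of these moved in the same direction in all 4 sections. DESeq2 called 48. This comparison shares sections and many free spots with the comparison of Foxp3 spots, so their values stand side by side and were not tested against each other.

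Spots next to Foxp3 showed differences in the chemokine, stromal and hypoxia genes. Ccl22 was at 1.13 ± 0.17 on the log2 scale (edgeR adjusted p = 0.00602), against 1.97 in Foxp3 spots themselves. Col1a1 was at 0.83 ± 0.15 (edgeR adjusted p = 0.0175), Cxcl9 at 0.42 ± 0.08 (edgeR adjusted p = 0.0255) and H2-Ab1 at 0.31 ± 0.06 (edgeR adjusted p = 0.0181), each higher in 4 of 4 sections. Of 12 hypoxia genes 7 fell, with Slc2a1 at -0.65 ± 0.09 (edgeR adjusted p = 0.00406) and Bnip3 at -0.68 ± 0.08 (edgeR adjusted p = 0.00266). Of the Treg list, none of 19 genes tested was called by edgeR or DESeq2, 5 had an unadjusted p under 0.05, and Tnfrsf18 stood at 0.47 ± 0.18 (edgeR adjusted p = 0.268). Markers of other tissue were higher too by edgeR: 5 of 6 skeletal muscle genes tested with a median log2 of 1.33, Car3 of 3 adipocyte genes tested, and 3 of 11 endothelial genes tested (Cdh5, Esam and Plvap). Of these, 1 of the 5 muscle genes and all 3 endothelial genes were higher in 4 of 4 sections, and Car3 was not. DESeq2 called none of these muscle, fat and fibroblast genes and 1 endothelial gene, and the part of these tissues in the stromal differences was not tested. Thy1 was the only called gene of 18 tested in the T cell list (0.44 ± 0.08, edgeR adjusted p = 0.0167). The count ran from 20 without CC080F1 replicate 2 to 435 without CC075F1 replicate 1.

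**Figure D4:**
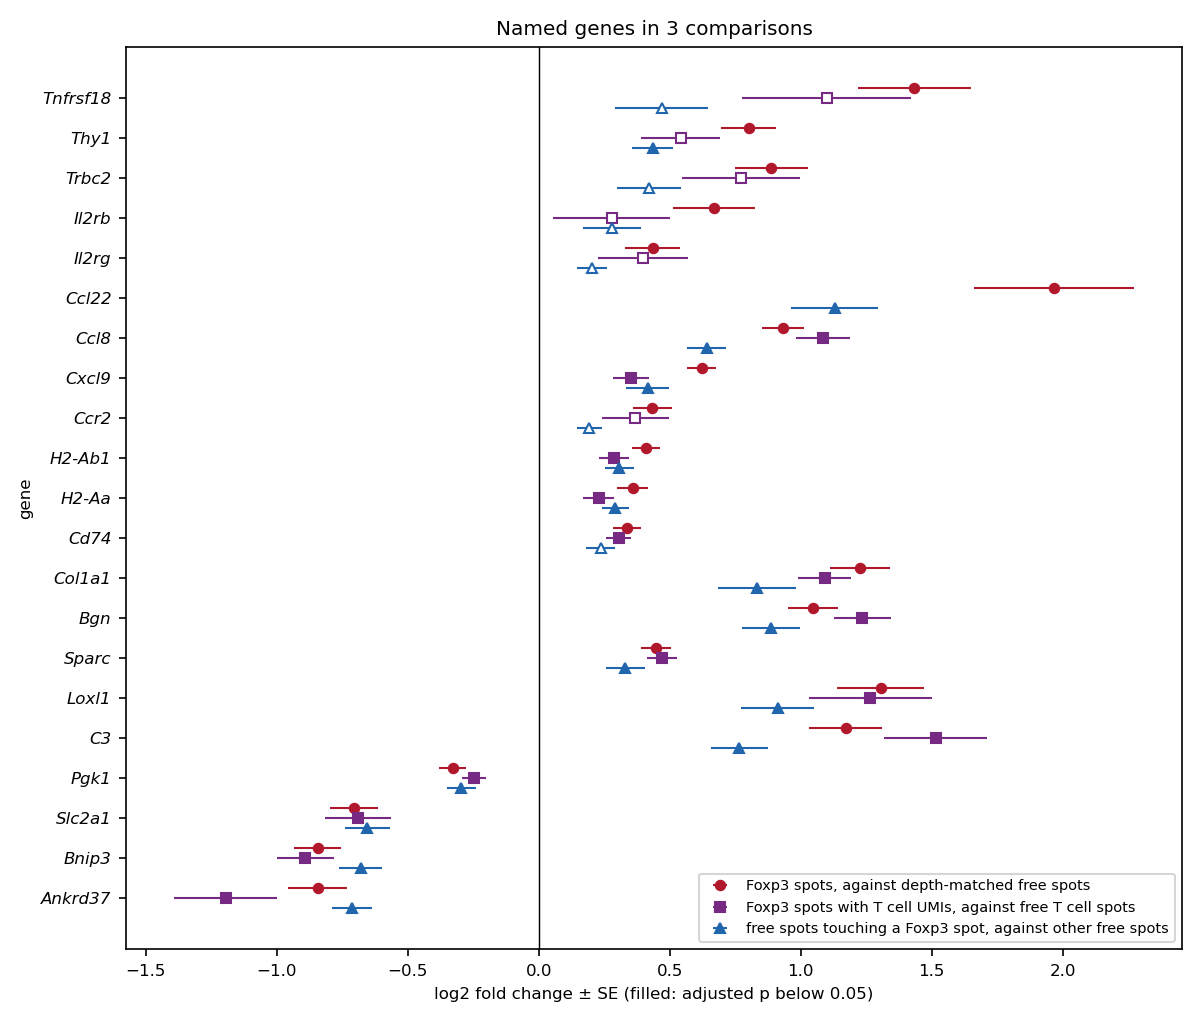
Log2 fold change ± SE of 21 named genes in Foxp3 spots against depth-matched free spots (red circles), in Foxp3 spots with T cell UMIs against free T cell spots (purple squares) and in free spots touching a Foxp3 spot against other free spots (blue triangles). Filled symbols have an adjusted p below 0.05. Ccl8, Cxcl9, H2-Ab1, Col1a1, Bgn, Sparc, Loxl1 and C3 are filled and above 0 in all 3 comparisons, Pgk1, Slc2a1, Bnip3 and Ankrd37 filled and below 0, and Tnfrsf18 is filled in the first only.

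Foxp3 spots lay on average slightly nearer to the tissue edge, but not in every tumor. Their mean distance to the nearest position off tissue was 8.51, 7.04, 5.54 and 7.32 grid steps, against 9.56, 9.28, 5.49 and 7.53 steps for matched free spots. The difference was -1.05, -2.23, 0.05 and -0.21 steps, with a mean of -0.86 ± 1.03 (SD, n = 4) and a two-sided exact permutation p of 0.25 (smallest possible 0.13). It was largest in CC075F1 replicate 2, where 20 of 45 Foxp3 spots (44.4%) lay within 3 steps of the edge against 30.7% of free spots. In the other sections 13 of 68, 10 of 37 and 26 of 90 Foxp3 spots did so. These shares of 19.1%, 27.0% and 28.9% stood against 16.8%, 37.3% and 28.9% of free spots. The median distance was 8, 4, 5 and 5.5 steps, and the farthest Foxp3 spot lay 22, 23, 12 and 21 steps inside. Splitting the depth strata by edge and interior left 183 genes called, 127 higher and 56 lower, with 8 hypoxia and 5 fibroblast genes among them in the same directions.

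**Figure D5:**
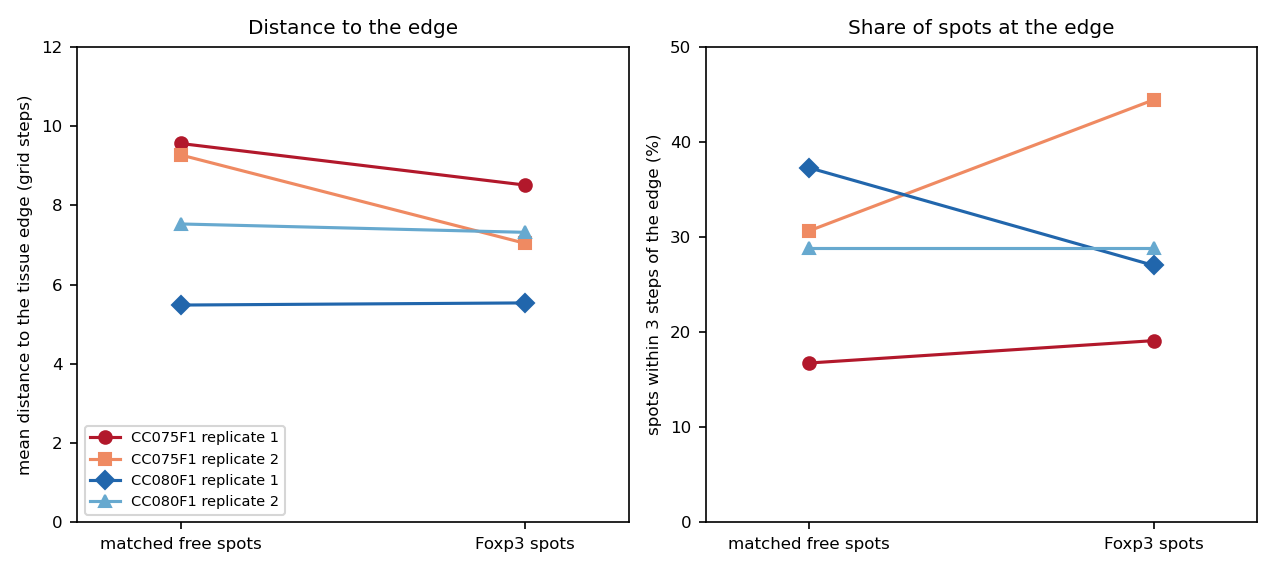
Mean distance to the tissue edge in grid steps (left) and share of spots within 3 steps of it (right) for depth-matched free spots and Foxp3 spots, with a line per section and no error bars. The lines of CC075F1 replicate 2 move most (9.28 to 7.04 steps and 30.7% to 44.4%), and those of CC080F1 replicate 1 run the other way (5.49 to 5.54 steps and 37.3% to 27.0%).

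Foxp3 spots did not neighbour each other in a pattern common to the tumors. Of the tissue neighbours of Foxp3 spots, 1.52%, 3.11%, 2.71% and 1.93% were Foxp3 spots themselves, and of the neighbours of matched free spots 2.77%, 1.32%, 1.52% and 2.65%. The ratio was 0.55, 2.36, 1.79 and 0.728, above 1 in 2 of 4 sections, and 30 of 240 Foxp3 spots touched another. Because the neighbours carry the measure that chose the spots, no test was made.

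The Foxp3 contrast was finally compared between strains. The term for the difference passed the test in 1 of 11418 genes (0.00876%), Hbb-bs, a beta globin of red blood cells (-1.40 on the log2 scale, CC075F1 minus CC080F1, edgeR adjusted p = 0.031). Its levels were 18.6, 94.3, 43.3 and 153 CPM in Foxp3 spots and 12.7, 224, 50.2 and 104 CPM in free spots, so its Foxp3 sums lay above the free sums in 1 section of each strain and below in the other. The sign turned without CC075F1 replicate 2 (0.16), and without CC080F1 replicate 2 the value was -0.81 and no longer called. At an unadjusted p under 0.05 there were 414 of the 11418 genes, a share below 0.05, against 0 adjusted and 18 unadjusted calls by DESeq2. The count was 45 without CC075F1 replicate 1, 4 without CC080F1 replicate 1 and 7 without CC080F1 replicate 2.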

How the data were processed

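Per the labels and the file headers, the authors made the UMI counts with Space Ranger 1.3.1 on GRCm38 (mm10) and deposited a matrix of 32285 genes for each of the 4 sections, with no normalization. Their processing notes also name Seurat 5.0.1, whose output was not used here. The reference genome is that of C57BL/6J. The 240 Foxp3 spots and the gene lists were chosen with earlier results of these data known.

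Counts of spots were summed per class and section, giving 8 sums of 1407516 to 15672576 UMIs. edgeR 4.0.16 (R 4.3.3, limma 3.58.1) was run with filterByExpr, TMM scaling, section as a block and its quasi-likelihood test, with a Benjamini-Hochberg adjusted p below 0.05 as the call. The block stands for the tumor, since both sums of a pair come from 1 section. Single values were compared by exact permutation over sections (scipy 1.17.1, Python 3.11.15). In spots with T cell UMIs, matching used 5 depth strata and 4 classes of T cell UMIs, with 1 free spot per Foxp3 spot. The p-values of edgeR rest on the spread between these 4 tumors, drawn in part from all genes tested. A gene can thus be called although its own sections disagree, as Col1a1 and Acta1 were. The exact permutation p-values rest on the section values alone. On simulated counts of 11305 genes for the comparison of Foxp3 spots with matched free spots, 89% of genes changed 2-fold and 97% of genes changed 4-fold were recovered, with 9 false calls among 195. These counts were drawn with the means and spread that edgeR itself had fitted. They held no class difference particular to 1 section. The share of false calls in the real data thus cannot be read from them.

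The genes named were all called genes of the Treg list with Il2ra, Ctla4, Ikzf2, Tnfrsf18, Ccr8 and Il10, up to 4 genes of each other list with called genes and the smallest p first, the 10 largest positive and 10 largest negative fold changes among called genes with the same direction in 4 sections and a mean of 1 CPM or more (predicted genes left out), and the neighbours of Foxp3. Capg, Cd4, Icos, Il2, Ccr4 and Plin1 were named after their values were seen. An item covered by this rule is not reported here. Alternatives were DESeq2 1.42.0 (test and size factors), library size alone, no filter, each section left out, a robust spread, no block, other matchings and other Foxp3 thresholds. The comparison of touching spots and the robust spread were added after seeing the data.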

Additional observations from a re-analysis of the deposited data

Results flagged for a closer look

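The Foxp3 contrast of Hbb-bs differed between strains by -1.40 on the log2 scale in the test of the difference itself (CC075F1 minus CC080F1, edgeR adjusted p = 0.031). Tnni2, a troponin of fast skeletal muscle, moved in opposite directions in the strains, its level in Foxp3 spots being 1.397 and 3.195 times that in free spots in CC075F1 but 0.960 and 0.847 times in CC080F1. That difference between the strains was not tested. The summed level of the cytotoxic T and NK cell list also moved in opposite directions, at 1.0001 and 1.179 times the free level in CC075F1 but 0.935 and 0.970 times in CC080F1. This too was not tested, and the classes hardly differed in CC075F1 replicate 1.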

How the results depend on the processing

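In the comparison of Foxp3 spots with matched free spots, 225 genes were called (149 higher, 76 lower). Library size alone gave 266, with a split of 215 higher and 51 lower, and DESeq2 size factors gave 229. DESeq2's Wald test called 38, no filter 432, weighting all free spots 355 and Foxp3 at exactly 1 UMI 145. At 2 Foxp3 UMIs or more, in 3 sections and 4144 genes, edgeR called 0, with 170 genes at an unadjusted p under 0.05. Leaving out a section gave 59 to 401. Without the replicate block, which drops the pairing within sections, edgeR called 0 of the genes in this comparison, 0 in T cell spots and 0 in touching spots, with 187, 125 and 81 at an unadjusted p under 0.05. In T cell spots 78 genes became 12 by DESeq2, 1 at 2 UMIs or more and 45 to 107 without a section. In touching spots 173 became 111 with library size alone (80 higher, 31 lower), 48 by DESeq2, 693 with no filter and 20 to 435 without a section. The single gene called for the strain difference became 0 with library size alone, by DESeq2 or with the robust spread (377, 18 and 403 unadjusted), 7 with no filter or no depth matching, 2 with 20 strata, 6 with weighting, 4 with edge and interior strata, and 1 to 45 without a section.

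The strain ratio of Foxp3 spot shares, 0.933, turned to 1.299 at 2 UMIs or more and 1.03 after thinning to 20000 UMIs, and ran from 0.660 to 1.46 without a section. The edge distance kept its sign, from -0.402 to -1.16 steps without a section, and was -4.08 steps at 2 UMIs or more (3 sections), against -0.86. Among named genes, Ikzf2 (0.09) turned to -0.053 without depth matching, -0.020 with 20 strata, -0.050 with weighting, -0.056 with edge and interior strata and -0.055 without touching spots, and ran from -0.022 to 0.17 without a section. Cxcl9 was at -0.018 at 2 UMIs or more. Igkc turned to 0.42 without depth matching, 0.27 with weighting and 1.10 without skin, muscle and fat spots, and Acta1 to -0.58 by DESeq2. The strain difference of Hbb-bs ran from -1.73 to 0.16 without a section. The causes of these moves were not tested. Of 945 values of 56 named genes, 728 kept direction and side of the threshold, 204 lost the call, 2 gained it and 11 turned. With 1 or 2 Foxp3 UMIs in a spot, the depth limits which spots can be told apart, and Ccr8, Cd4 and Il10 were below the filter in the comparison of Foxp3 spots.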
